A study of Rattus norvegicus with 6 samples.

Results

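Collagen genes were examined in RNA sequencing libraries of rat brain. Members and classes were chosen with earlier results of these data known. The rule for members used only the gene symbol. Every row whose symbol has the form Col, number, a, number was taken, and 42 of the 32623 rows of the gene table matched. They comprised 10 fibrillar collagens, 6 type IV collagens, 9 fibril-associated collagens (FACIT), 6 collagens of the type VI and XXVIII kind, 4 transmembrane collagens, 3 short-chain network collagens, 2 multiplexins and 2 others. The question was how far fibrillar and basement membrane collagens differed between libraries and between groups.

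The 6 libraries carried the label rat brain and a genotype label. The vector group (n = 3) had the plasmid pcDNA3.1 as its genotype, an expression plasmid with no insert named, and the LINC00894 group (n = 3) had pcDNA3.1/LINC00894, the same plasmid with a human long non-coding RNA. Cerebral ischemia and reperfusion are the subject named in the title of the series, but no label states ischemia, brain region, age, sex, strain or route of delivery for these libraries, or that each came from its own animal. The p-values thus speak to differences between these libraries, and part of that spread may be technical. Summed gene counts ran from 12843875 to 16268464 per library, and collagen genes took 0.0862% to 0.127% of them. Kdm5d and Eif2s3y, both Y-linked, together had 0 counts in LINC00894 replicates 1 and 2, and the other 4 libraries had 1498 to 2071.

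Collagens are extracellular proteins built of 3 chains wound into a triple helix. Fibrillar collagens such as types I and III form the cables of connective tissue, which in brain is found mainly in the meninges and around larger vessels. Type IV collagen forms a sheet-like network within basement membranes, including those under brain endothelium and at the surface of astrocyte end-feet. In mouse brain, fibroblasts are the known main source of types I and III, and endothelial cells and pericytes of the vascular α1(IV) and α2(IV) chains. In bulk tissue, fewer cells of a type and less RNA per cell cannot be told apart.

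The type IV genes lie in head-to-head pairs, and the levels of partners are compared further on. In RefSeq's annotation of the GRCr8 assembly, the starts of Col4a1 and Col4a2 on chromosome 16 are 76 bases apart on opposite strands, and those of Col4a3 and Col4a4 on chromosome 9 are 412 bases apart. The starts of Col4a5 and Col4a6 on the X chromosome are 1414 bases apart. The sequence between the starts of the most abundant pair, chr16:84885521-84885596, is shown. Beside it is the stretch that the promoter windows of the low pair have in common, chr9:91323740-91323827. The first holds all bases between its starts, and the second only a middle part of the 412. The 2 stretches are thus unlike regions, and their part in the levels was not tested. Both are on the plus strand of GRCr8, 5′ to 3′, with GC box matches in capitals.
Col4a1-Col4a2: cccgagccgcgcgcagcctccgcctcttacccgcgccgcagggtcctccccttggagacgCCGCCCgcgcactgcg
Col4a3-Col4a4: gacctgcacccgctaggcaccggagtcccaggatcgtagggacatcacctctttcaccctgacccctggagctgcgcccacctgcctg
The stretch of the first pair is 78.9% G or C and that of the second 65.9%. A GC box was searched for by the letters GGGCGG on both strands. The CCAAT box was searched for in the same way. So was the TATA box, by the letters TATAA. Of all 33469 RefSeq promoter windows, each of the same length around a gene start, 33.1% hold the GC box letters, 37.5% the CCAAT letters and 26.2% the TATAA letters. The windows of Col4a1 and Col4a2 each hold 2 GC box matches, and CCAAT letters are found at 2 places in the window of Col4a1 and at 1 in that of Col4a2, and as these windows overlap by 176 bases, some GC box matches are the same letters. The windows of Col4a3, Col4a5 and Col4a6 each hold 1 GC box match and that of Col4a4 none, and these 4 windows hold no CCAAT letters. None of the 6 type IV windows holds TATAA. These matches are descriptions of letters and not evidence of binding.

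By level per length, the type IV genes Col4a1 and Col4a2 stood highest. Levels are FPKM, counts scaled by exonic length and by summed counts of the library, as deposited. The highest means over all 6 libraries were 32.2 FPKM for Col4a1 and 28.1 FPKM for Col4a2, the chains of the common type IV network. They were followed by 20.3 FPKM for Col6a1, a chain of beaded microfibrils, 13.5 FPKM for the FACIT Col16a1 and 12.8 FPKM for the fibrillar Col11a2. In this order, Col4a1 and Col4a2 overlapped across libraries, as did Col4a2 and Col6a1, Col6a1 and Col16a1, and Col16a1 and Col11a2. Col3a1 ranked 11 with 6.17 FPKM and Col1a1 ranked 18 with 2.43 FPKM. A mean of at least 1 FPKM was reached by 25 of the 42 genes, and the lowest were Col6a5 and Col6a4 at 0.0417 and 0.0367 FPKM.

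**Figure D1:**
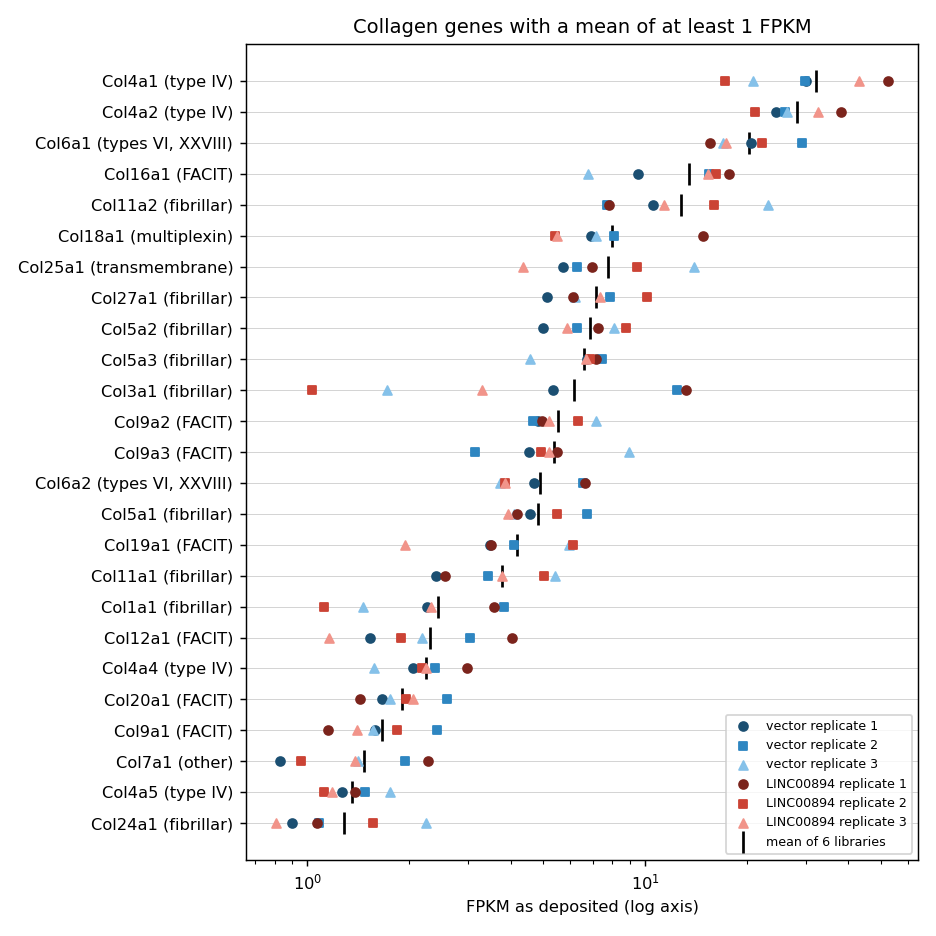
FPKM (log axis) of the 25 collagen genes with a mean of at least 1 FPKM, with 1 point per library and a bar at the mean of the 6 libraries. Col4a1 and Col4a2 head the order at 32.2 and 28.1 FPKM, and Col3a1 has the widest spread, from 1.03 to 13.23 FPKM.

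No collagen gene passed the test between groups. Of the 42 genes, 36 passed edgeR's filter on low counts, and 0 of these had a Benjamini-Hochberg adjusted p under 0.05 by edgeR's quasi-likelihood test, as was the case for 0% of all 15121 genes tested. At an unadjusted p under 0.05 there were 0 collagens by edgeR and 1 by DESeq2 (Col16a1, unadjusted p = 0.045), against 4.03% of all genes by edgeR (1.82% higher and 2.22% lower in LINC00894). Without the filter there were 2 (Col16a1 and Col23a1), against 4.27%. The log2 fold change, LINC00894 minus vector, was positive for 16 collagens and negative for 20, against 51.8% positive over all genes, with a median of -0.07, while the median over all genes was 0.01. DESeq2 called 0.0727% of all genes and edgeR without a filter 0.0351%, with 0 collagens among them in either. Among the 36 tested collagens, the groups did not overlap, with LINC00894 higher, for 1 (Col17a1), against 4.98% of all genes tested, and with LINC00894 lower for 0, against 3.88%. Col23a1, which failed the filter, did not overlap either and was lower in LINC00894.

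**Figure D2:**
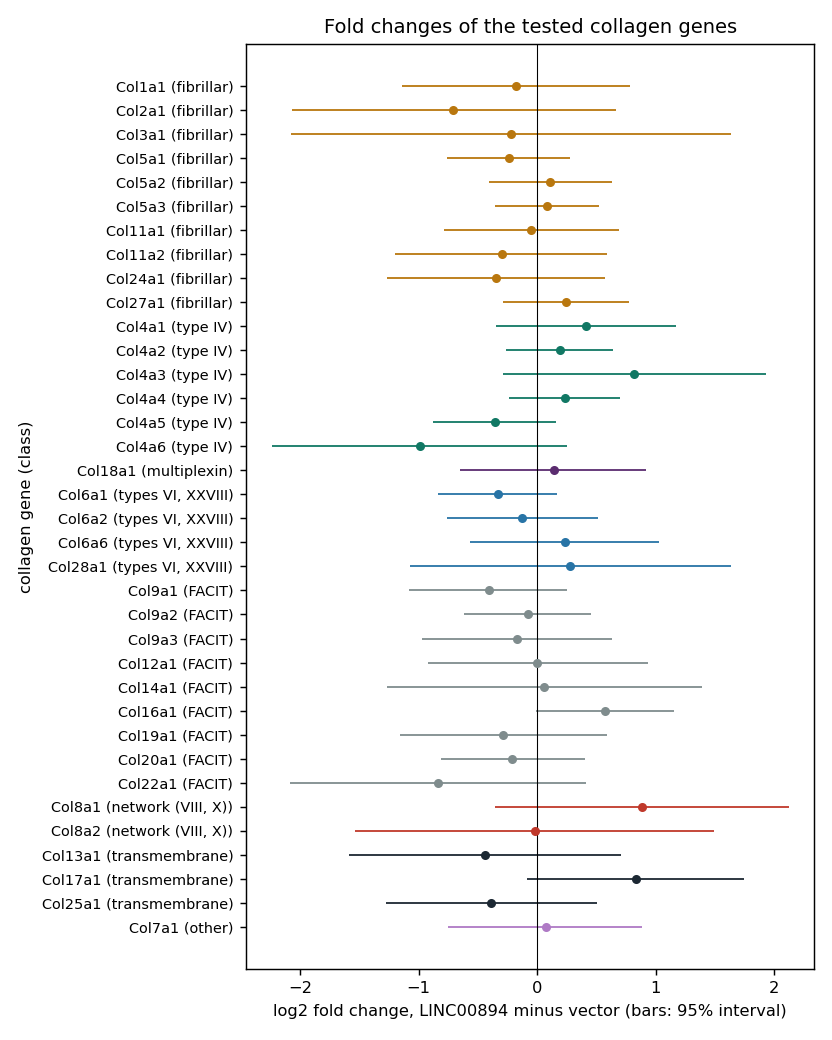
Log2 fold change, LINC00894 minus vector, of the 36 tested collagen genes by edgeR, with bars for the 95% interval and colours for the class. All 36 intervals include 0, and Col16a1 comes nearest to leaving it, with an interval from -0.01 to 1.15.

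Libraries differed more than groups did. The ratio of the highest to the lowest library, in CPM (counts scaled to a common library total, here adjusted by TMM), was at least 3 for 15 of the 36 tested collagens (41.7%) and for 13.5% of all genes tested. Among genes with a mean of at least 100 counts, where counting error is smaller, it was at least 3 for 6 of 23 collagens (26.1%) and for 5.19% of all 11137 such genes. The median share of a collagen's variance on the log2 scale that lay between the groups was 7.66%, and over all genes it was 12.6%. With 3 against 3 libraries a small share is usual for genes without a group difference, so these shares are descriptions and not a test. The highest level was found in vector replicate 3 for 12 collagens (33.3%, against 23.8% of all genes) and in LINC00894 replicate 1 for 11 (30.6%, against 22.2%). It was found in vector replicate 2 for 8 (22.2%, against 10.2%) and in LINC00894 replicate 2 for 5 (13.9%, against 12.1%). Vector replicate 1 and LINC00894 replicate 3 were highest for 0 of the 36, against 10.8% and 20.8% of all genes.

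**Figure D3:**
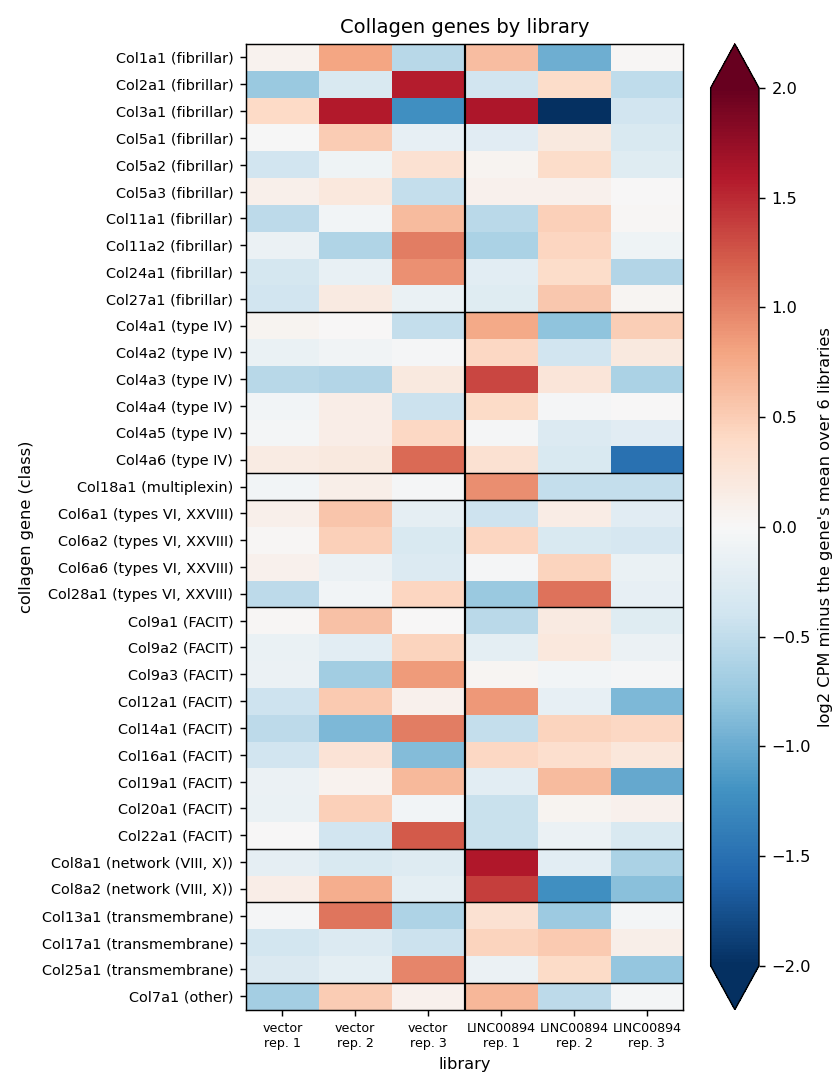
Log2 CPM of each tested collagen gene minus its mean over the 6 libraries, with classes separated by horizontal lines and groups by the vertical line. Col3a1 lies at 1.58 and 1.61 in vector replicate 2 and LINC00894 replicate 1 and at -1.99 in LINC00894 replicate 2, while Col2a1 lies at 1.57 in vector replicate 3.

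Among fibrillar collagens, type III was the most uneven. Col3a1 encodes the single chain of type III collagen, which is abundant in vessel walls. Its level was 5.35, 12.41 and 1.72 FPKM in vector replicates 1, 2 and 3 and 13.23, 1.03 and 3.29 FPKM in LINC00894 replicates 1, 2 and 3. Each group thus held 1 library above 12 FPKM and 1 below 2 FPKM, and the groups overlapped. The highest library was 12.4 times the lowest, and the log2 fold change was -0.22 (SE 0.83). Its sign depended on single libraries, as it was 0.64 without vector replicate 2, 0.24 without LINC00894 replicate 2, 0.03 without LINC00894 replicate 3 and -1.64 without LINC00894 replicate 1.

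Col1a1, the α1 chain of type I collagen, the main fibrillar collagen of connective tissue, followed a similar order. Its level was 2.26, 3.83 and 1.46 FPKM in the vector replicates and 3.56, 1.12 and 2.33 FPKM in the LINC00894 replicates. Vector replicate 2 and LINC00894 replicate 1 were again the highest libraries and LINC00894 replicate 2 the lowest, with a log2 fold change of -0.18 (SE 0.43). The sign turned to 0.24 without vector replicate 2 and to 0.12 without LINC00894 replicate 2. The partner chain Col1a2 has no row under that symbol. A pair of rows on chromosome 4 is described as type I alpha 2 in the table, with 3, 8, 5, 14, 5 and 4 counts in one and 0, 0, 0, 0, 0 and 1 in the other, vector replicates first. No source used here says how reads that fit both rows were counted, so the level of Col1a2 is uncertain.

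Several other fibrillar genes had another order of libraries than types I and III. Col11a2 encodes a chain of type XI collagen, known from cartilage. It stood at 10.55, 7.71 and 23.21 FPKM with vector and 7.84, 15.99 and 11.39 FPKM with LINC00894. It was therefore highest in vector replicate 3 and LINC00894 replicate 2, the libraries lowest in Col1a1 and Col3a1. Col2a1, Col11a1 and Col24a1 were also highest in vector replicate 3, at 1.68, 5.41 and 2.24 FPKM. These 4 genes were picked out after their values were seen. Outside the fibrillar class, Col25a1, the neuronal transmembrane collagen whose shed part was found in amyloid plaques, was highest there too, at 13.94 FPKM against 4.34 to 9.48 FPKM elsewhere. The type V genes, which in fibrils of type I help set the diameter, were steadier, with a highest to lowest ratio of 1.77 for Col5a1, 1.69 for Col5a2 and 1.60 for Col5a3. Col5a3 was highest in vector replicate 2 and LINC00894 replicate 1, at 7.47 and 7.16 FPKM, and Col5a1 was highest in vector replicate 2, at 6.74 FPKM, libraries that were also high in Col1a1 and Col3a1. Col5a2 was highest in LINC00894 replicate 2 and vector replicate 3, at 8.79 and 8.08 FPKM. Col27a1 ran from 5.13 to 10.17 FPKM. Col5a2 lies 33293 bases from Col3a1 in the table's coordinates, and the level of Col3a1 over that of Col5a2 nevertheless ran from 0.117 to 1.98 across libraries.

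Over the class, all 10 fibrillar genes were tested, 3 with a positive and 7 with a negative log2 fold change. The values ran from -0.71 for Col2a1 to 0.24 for Col27a1, with a median of -0.20. The median was 0.18 without vector replicate 3 and 0.03 without vector replicate 2, so its direction rested on those libraries.

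Among type IV collagens, Col4a1 and Col4a2 supplied 90.3% to 95.2% of the summed FPKM of the 6 genes in each library. Col4a1 stood at 29.91, 29.72 and 20.84 FPKM with vector and 52.39, 17.25 and 43.14 FPKM with LINC00894. LINC00894 thus held the 2 highest libraries and also the lowest, and the log2 fold change was 0.41 (SE 0.34). Without LINC00894 replicate 2 it was 0.73 (SE 0.20, unadjusted p = 0.00682, Benjamini-Hochberg adjusted p = 0.645 by edgeR). Dropping LINC00894 replicate 1 instead lowered it to 0.10. It was 0.24 with vector replicate 3 dropped and 0.27 with LINC00894 replicate 3 dropped. Dropping vector replicate 1 gave 0.49, and dropping vector replicate 2 gave 0.48. Col4a2 stood at 24.43, 26.03 and 26.26 FPKM with vector and 38.17, 21.19 and 32.59 FPKM with LINC00894. Its log2 fold change was 0.19 (SE 0.20). With 1 library left out this ran from 0.01, when LINC00894 replicate 1 was dropped, to 0.36, when LINC00894 replicate 2 was. The order of the LINC00894 libraries was the same as for Col4a1, while the vector libraries lay within 2 FPKM of each other. The level of Col4a1 over that of Col4a2 was 1.22, 1.14 and 0.794 with vector and 1.37, 0.814 and 1.32 with LINC00894. The α1 chain gene was thus the lower of the pair in vector replicate 3 and LINC00894 replicate 2, the libraries that were also lowest in Col1a1 and Col3a1. In the table's own coordinates, for which no source used here gives a build, these genes are also head-to-head, but 83600 bases apart. In GRCr8 their starts are 76 bases apart. For Col4a5 and Col4a6 the distance is 295822 bases in the table, against 1414 in GRCr8, and for Col4a3 and Col4a4 373, against 412. The reason for the differences was not tested.

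The remaining type IV genes, whose chains build the specialised basement membranes of the kidney and other organs, were low. Col4a3 stood at 0.35, 0.35 and 0.60 FPKM with vector and 1.43, 0.64 and 0.35 FPKM with LINC00894. It was highest in LINC00894 replicate 1 and overlapped between groups, with a log2 fold change of 0.82 (SE 0.49). With presence of Y-linked counts as a covariate, a fit in which the group effect rests on LINC00894 replicate 3 alone, it was -0.39. Its head-to-head partner Col4a4 had a mean of 2.24 FPKM, and Col4a4 over Col4a3 ran from 2.07 to 6.83 across libraries. The X-linked Col4a5 stood at 1.27, 1.48 and 1.76 FPKM with vector and 1.38, 1.12 and 1.18 FPKM with LINC00894, with a log2 fold change of -0.36 (SE 0.23). The X-linked Col4a6 stood at 0.29, 0.30 and 0.59 FPKM with vector and 0.34, 0.21 and 0.08 FPKM with LINC00894, with a log2 fold change of -0.99 (SE 0.55) on 5 to 46 counts per library. Both overlapped between groups. Their levels in LINC00894 replicates 1 and 2, which had no Y-linked counts, lay on both sides of that in LINC00894 replicate 3 for Col4a5 and above it for Col4a6. Over all 6 type IV genes, 4 had a positive and 2 a negative log2 fold change, with a median of 0.21, which was 0.05 without LINC00894 replicate 1 and -0.15 with the Y-linked covariate.

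The fibrillar and type IV classes were also set against each other within a library, a comparison that needs no scaling between libraries. The fibrillar sum was from 0.553 times the type IV sum in LINC00894 replicate 1 to 1.33 times in LINC00894 replicate 2. The summed FPKM of the fibrillar genes was 43.2, 57.2 and 58.6 with vector and 53.4, 56.8 and 45.9 with LINC00894. That of type IV was 58.3, 60.3 and 51.6 with vector and 96.7, 42.6 and 79.6 with LINC00894. The type IV sum therefore covered the wider range, and LINC00894 held its highest and lowest libraries. The log2 ratio of fibrillar to type IV was -0.43, -0.07 and 0.18 in vector (mean -0.11 ± 0.31 SD, n = 3) and -0.86, 0.42 and -0.79 in LINC00894 (mean -0.41 ± 0.72 SD, n = 3). The difference of means, -0.30, was smaller than the spread within LINC00894, and it was -0.72 without LINC00894 replicate 2, -0.47 without vector replicate 1, -0.16 without vector replicate 3, -0.11 without LINC00894 replicate 3 and -0.08 without LINC00894 replicate 1. No test was run on these sums, since the members were chosen together. Col1a1 and Col3a1 made up 3.79% to 31.4% of the fibrillar sum, so most of it came from the other fibrillar genes counted. Col1a2, whose level is uncertain, is not part of this sum or of the ratios. The full share of types I and III is therefore not known.

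**Figure D4:**
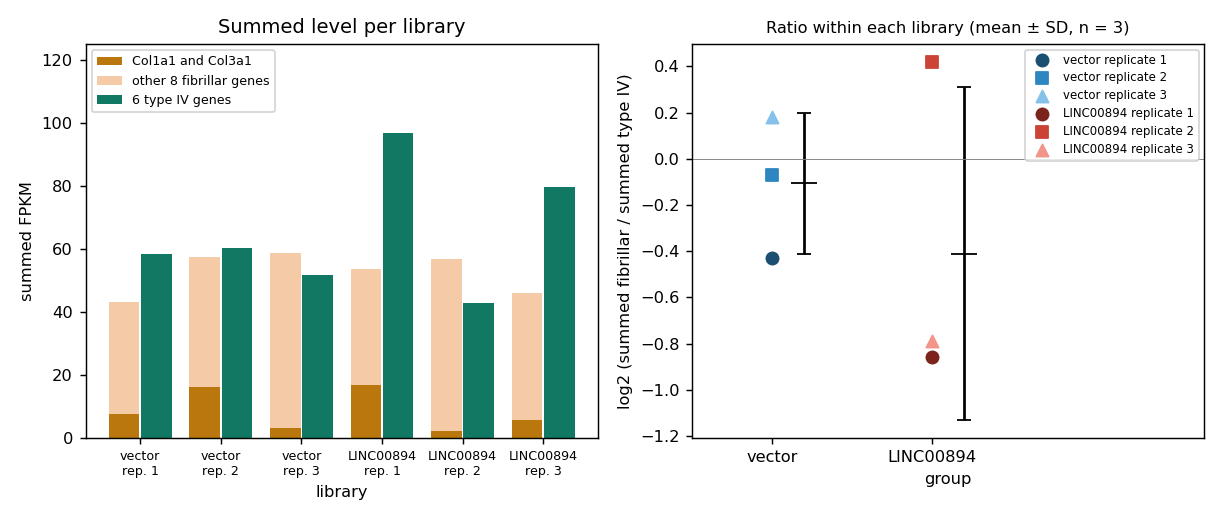
Left, summed FPKM of the fibrillar genes (Col1a1 and Col3a1 below, the other 8 above) and of the 6 type IV genes in each library. Right, log2 ratio of the fibrillar to the type IV sum, with points for libraries and bars for mean ± SD (n = 3); vector lies between -0.43 and 0.18 and LINC00894 between -0.86 and 0.42.

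Outside these classes, Col16a1 had the smallest unadjusted p. It encodes a FACIT chain, a kind of collagen that decorates the surface of fibrils and other matrix structures. Its level was 9.51, 15.45 and 6.79 FPKM with vector and 17.68, 16.27 and 15.37 FPKM with LINC00894. The LINC00894 libraries lay close together and above vector replicates 1 and 3, while vector replicate 2 lay just inside their range. The log2 fold change was 0.57 (SE 0.26, unadjusted p = 0.0523, Benjamini-Hochberg adjusted p = 0.981 by edgeR), and a two-sided exact permutation test of the FPKM values gave p = 0.2, where 3 against 3 libraries allow no value below 0.1. Without vector replicate 2 the log2 fold change was 0.93 (SE 0.22) and without vector replicate 3 it was 0.32.

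Col17a1, the transmembrane collagen of hemidesmosomes, was low, at 0.12, 0.13 and 0.11 FPKM with vector and 0.25, 0.25 and 0.19 FPKM with LINC00894. These rest on 9 to 18 counts per library, and the groups did not overlap. The log2 fold change was 0.83 (SE 0.41), with an unadjusted p of 0.0713 by edgeR. Col8a1, a short-chain collagen of vessel walls, stood at 0.64, 0.60 and 0.60 FPKM with vector and 2.43, 0.65 and 0.48 FPKM with LINC00894. Its log2 fold change of 0.88 (SE 0.55) came from LINC00894 replicate 1, and it was -0.17 without that library. Its partner Col8a2 was also highest there, at 1.22 FPKM against 0.17 to 0.73 FPKM elsewhere.

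Col6a1 stood at 20.56, 29.08 and 16.99 FPKM with vector and 15.53, 22.18 and 17.43 FPKM with LINC00894, with a log2 fold change of -0.33 (SE 0.22). The groups overlapped, and vector replicate 2 was highest. Its neighbour Col6a2 was lower in every library, with Col6a1 over Col6a2 at 2.33 in LINC00894 replicate 1 and between 4.38 and 5.75 in the other libraries. Col9a1, a chain of the FACIT type IX, stood at 1.59, 2.42 and 1.57 FPKM with vector and 1.15, 1.84 and 1.40 FPKM with LINC00894 (log2 fold change -0.41, SE 0.30). The FACIT Col22a1 stood at 0.17, 0.13 and 0.43 FPKM with vector and 0.13, 0.16 and 0.14 FPKM with LINC00894 (-0.84, SE 0.56), with vector replicate 3 apart from the rest. Col18a1, the basement membrane multiplexin from which endostatin is cut, was highest in LINC00894 replicate 1, at 14.81 FPKM against 5.40 to 8.09 FPKM elsewhere. The median log2 fold change was -0.17 over the 9 FACIT genes and 0.05 over the 4 tested genes of types VI and XXVIII.

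The other tested genes overlapped between groups and had log2 fold changes from -0.44 to 0.28. Among FACIT genes, Col12a1 ran from 1.16 to 4.05 FPKM and was highest in LINC00894 replicate 1, and Col19a1, which in mice is made by hippocampal interneurons, ran from 1.95 to 6.11 FPKM. Col9a2 and Col9a3, the partner chains of Col9a1, were both highest in vector replicate 3, at 7.18 and 8.97 FPKM. Col20a1 ran from 1.43 to 2.60 FPKM and Col14a1 from 0.11 to 0.50 FPKM. Col13a1, a transmembrane collagen of cell junctions, was highest in vector replicate 2, at 1.53 FPKM against 0.41 to 0.92 FPKM elsewhere, with the lowest of these log2 fold changes (-0.44, SE 0.51). Col7a1, the collagen of the anchoring fibrils of skin, ran from 0.83 to 2.28 FPKM. Col28a1 and Col6a6 were low, with at most 0.57 and 0.40 FPKM.

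Of the 6 genes that failed the filter, Col23a1, Col15a1, Col10a1, Col26a1, Col6a4 and Col6a5, the last 5 had at most 15 counts in any library. Col23a1, a transmembrane collagen, had 15, 11 and 23 counts in vector and 0, 5 and 3 in LINC00894, and is described in detail because of these values. Fitted without the filter on low counts its log2 fold change was -2.43 (SE 0.78, unadjusted p = 0.00503, Benjamini-Hochberg adjusted p = 0.852 by edgeR). A further row described as the α1(XXIII) chain had 2, 9 and 9 counts in vector and 13, 3 and 12 in LINC00894. Both rows together gave 1.27, 1.23 and 2.03 CPM in vector and 0.994, 0.623 and 1.13 in LINC00894, here without the TMM adjustment, a much smaller difference, although the groups still did not overlap.

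Markers of the cells that make collagens also differed between libraries. Of 15 markers of fibroblasts and meninges, 14 were tested, 7 with a positive and 7 with a negative log2 fold change, and 0 were at 0 in all libraries. Their median deviation from each gene's mean was 0.10, 0.54 and -0.28 log2 units with vector and 0.89, -0.85 and -0.29 with LINC00894. The 2 libraries with the highest medians, LINC00894 replicate 1 and vector replicate 2, were those highest in Col1a1 and Col3a1, and the lowest, LINC00894 replicate 2, was lowest in both. The summed level of the list ran from 511.2 to 753 CPM in vector and from 300.1 to 1091 in LINC00894. Its most abundant gene was Ptgds, a prostaglandin synthase that oligodendrocytes and choroid plexus also express. Zic1, a transcription factor that some neurons also express, had a log2 fold change of -0.77 (SE 0.28). It stood at 6.43, 6.75 and 12.5 FPKM with vector and 5.43, 4.66 and 5.73 FPKM with LINC00894, with vector replicate 3 apart from the rest. It was the 1 gene of 14 at an unadjusted p under 0.05 by edgeR, against 4.03% of all genes. The groups did not overlap, with LINC00894 lower, for 1 gene of the list, against 3.88% of all genes. The part of these markers in the collagen levels was not tested.

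Of 13 endothelial markers, 11 had a row and 10 were tested. All 10 had a positive log2 fold change (median 0.44), against 51.8% of all genes. Markers of the same cell type can move together between libraries, so the 10 signs are not independent. Tek, the angiopoietin receptor (0.66, SE 0.29), was the 1 gene of 10 at an unadjusted p under 0.05 by edgeR, against 4.03% of all genes. The groups did not overlap, with LINC00894 higher, for 1 gene of the list, against 4.98% of all genes. The median deviation of the endothelial markers was -0.05, -0.08 and -0.26 with vector and 0.75, -0.38 and 0.07 with LINC00894. Their sum ran from 312.2 to 404 CPM in vector and from 334.5 to 677.6 in LINC00894. LINC00894 replicate 1 was highest by both measures, as for Col4a1 and Col4a2. The lowest library was LINC00894 replicate 2 by the median deviation, as for these genes, but vector replicate 3 by the sum. Cldn5, the main tight junction claudin of brain endothelium, is listed at 0 counts in all 6 libraries, while the 10 tested genes of the list had counts. Whether its row was countable in the annotation used was not tested, so the 0 does not show that the transcript was absent. Pericyte markers (10 tested) had a median log2 fold change of 0.14 and sums of 149.5 to 178.2 in vector and 135.2 to 178.4 in LINC00894. Smooth muscle markers (7 of 8 tested) had a median of -0.17 and sums of 71.54 to 107 and 56.66 to 125.7. The part of the vessel markers in the type IV levels was not tested.

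**Figure D5:**
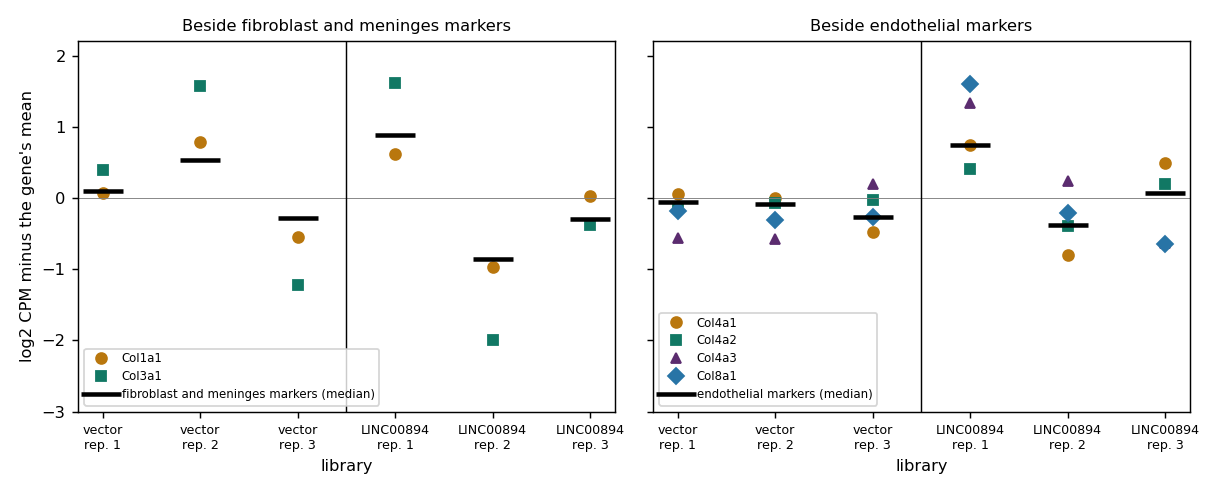
Log2 CPM minus the gene's mean over 6 libraries, for Col1a1 and Col3a1 beside the median of the fibroblast and meninges markers (left) and for Col4a1, Col4a2, Col4a3 and Col8a1 beside the median of the endothelial markers (right), with the groups separated by a vertical line. The fibroblast median lies at 0.89 in LINC00894 replicate 1 and -0.85 in LINC00894 replicate 2, and the endothelial median at 0.75 and -0.38 in the same libraries. Not all type IV genes are shown. Of the others, Col4a4 is highest in LINC00894 replicate 1 (0.38), while Col4a5 and Col4a6 are highest in vector replicate 3 (0.42 and 1.14).

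Choroid plexus markers were scarce, with 5 of 10 tested, Otx2 at 0 in all libraries, a median log2 fold change of -0.14 and sums of 16.77 to 34.13 CPM in vector and 7.607 to 22.25 in LINC00894. For ependymal markers the median was -0.12, for neurons -0.11, for astrocytes -0.17, for oligodendrocytes -0.12, for microglia 0.21 and for red blood cells 0.08. Of 6 microglial markers, 5 had a positive log2 fold change and 1, Tmem119, a negative one (-0.65, SE 0.37). Aif1 (0.85, SE 0.24) was the 1 gene of these 6 at an unadjusted p under 0.05 by edgeR, against 4.03% of all genes. The neuronal sum was lowest, at 4541 CPM, in LINC00894 replicate 1 and 5934 to 6814 in the other libraries. Oligodendrocyte markers summed to 10484 in vector replicate 3, which was highest for Col2a1, Col11a1, Col11a2, Col24a1 and Col25a1, and to 4654 to 7839 elsewhere. Astrocyte markers had their lowest sum in that library, 2404 against 3537 to 4385 elsewhere, although their median deviation there was 0.04. The part of either list in those collagen levels was not tested. The red cell sum was 12.45 in vector replicate 2 and 18.85 in LINC00894 replicate 3, and 89.51 to 134.7 in the other 4 libraries.

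Of the genes that make, bind and break down collagen, 0 passed an adjusted p of 0.05 over all genes. Among 31 tested genes of collagen synthesis, 19 had a positive and 12 a negative log2 fold change (median 0.08), and 1 reached an unadjusted p under 0.05. Over all genes that share was 4.03%, with 1.82% higher and 2.22% lower in LINC00894, so single calls in lists of this size are near the background. The 1 gene was Tll1, a protease of the family that trims procollagen ends, at 2.31, 3.29 and 1.53 FPKM with vector and 1.96, 0.808 and 0.810 FPKM with LINC00894 (log2 fold change -1.07, SE 0.40). P4hb, a subunit of the prolyl hydroxylase that stabilises the helix, was the most abundant of them. It was highest in LINC00894 replicate 1 and vector replicate 2, at 127 and 103 FPKM, and lowest in vector replicate 3 and LINC00894 replicate 2, at 55.2 and 62.5 FPKM.

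Among 17 tested proteases and inhibitors of collagen breakdown, 10 were positive and 7 negative (median 0.06), with Mmp17 at -0.68 (SE 0.22) and Timp2 at -0.37 (SE 0.16), both at an unadjusted p under 0.05, that is 2 of 17 against the 4.03% of all genes. The groups did not overlap for 1 gene of this list with LINC00894 higher, against 4.98% of all genes, and for 2 with it lower, against 3.88%. Timp1, an inhibitor of matrix metalloproteinases, stood at 91.0, 220, 23.4, 476, 33.8 and 105 FPKM, vector replicates first. It was highest in LINC00894 replicate 1 and vector replicate 2 and lowest in vector replicate 3 and LINC00894 replicate 2, as were Col1a1 and Col3a1 in their 2 highest and 2 lowest libraries. Among 23 basement membrane partners of type IV, 7 were positive and 16 negative (median -0.09). Pxdn, the peroxidase that forms the sulfilimine cross-links of type IV collagen, stood at 4.47, 9.11 and 4.15 FPKM with vector and 3.52, 3.46 and 2.57 FPKM with LINC00894 (log2 fold change -0.95, SE 0.31, unadjusted p = 0.0117, Benjamini-Hochberg adjusted p = 0.981 by edgeR). For 3 genes of the list, Pxdn among them, all LINC00894 libraries were lower, against 3.88% of all genes. For 0 they were all higher, against 4.98%. Col4a1 and Col4a2 had positive log2 fold changes, with intervals that include 0. Npnt, an integrin ligand of basement membranes, was also at an unadjusted p under 0.05, with a log2 fold change of -1.35 (SE 0.49), which makes 2 of 23 against the 4.03% of all genes. Sparc, a collagen-binding glycoprotein and the most abundant of the list, was at 0.00 (SE 0.16).

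Among 22 partners of collagen fibrils, 10 were positive and 12 negative (median -0.03), with Postn, a matricellular protein, at 1.46, 1.22 and 0.984 FPKM with vector and 2.67, 1.62 and 1.91 FPKM with LINC00894 (log2 fold change 0.69, SE 0.30) and the only one of the 22 at an unadjusted p under 0.05, against 4.03% of all genes. Among 9 collagen receptors, 4 were positive and 5 negative (median -0.03). Itgb1, the β1 integrin chain shared by the collagen-binding integrins, was the most abundant, with 67.1 FPKM in LINC00894 replicate 1 and 34.5 to 51.5 FPKM elsewhere. Among 15 regulators of collagen transcription, mostly of TGF-β signalling, 8 were positive and 7 negative (median 0.05). Smad7, an inhibitor of that pathway, stood at 13.7, 15.3 and 16.6 FPKM with vector and 12.8, 8.10 and 11.8 FPKM with LINC00894 (log2 fold change -0.55, SE 0.19), without overlap, and was the 1 gene of 15 at an unadjusted p under 0.05, against 4.03% of all genes, and the 1 with all LINC00894 libraries lower, against 3.88%.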

How the data were processed

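Poly(A) RNA of 6 rat brain libraries was made into random-primed, paired-end libraries, per the labels' protocols. HISAT2 2.0.1 and DESeq2 are listed, with no role, in the submitters' processing notes. For counting tool, annotation, build and strand setting, the sources used here give nothing, so reads of overlapping genes may be mixed. For each gene and library the authors deposited a raw count and an FPKM, per the file headers. FPKM as deposited equals counts per exonic length and summed counts to within 0.0050. Rows without a symbol (388, with 0.0236% of counts) stayed in the tests.

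Groups came from the genotype label, and replicates were numbered in accession order. Counts were tested with edgeR 4.0.16 in R 4.3.3 (filterByExpr with minimum count 10 and minimum total count 15, TMM scaling, quasi-likelihood F-test, Benjamini-Hochberg over all genes tested, threshold 0.05). The biological coefficient of variation was 0.238, and intervals are 95% intervals. Members, classes and gene lists were chosen with earlier results of these data known. Library values are given for Col1a1, Col3a1, Col4a1, Col4a2 and the 10 members with the smallest unadjusted p, and of each other list for at most 3 genes with the smallest p and the most abundant. Other names were chosen after their values were seen. Of 227 symbols in the lists outside the classes, 217 matched a row, directly or through RefSeq names of GRCr8. Promoter windows are RefSeq's and matched 33 of 42 members. The code was tested on simulated data. DESeq2 1.42.0, limma 3.58.1 on log2(FPKM + 1), other scalings and filters, a Y-linked covariate and leaving out each library were alternatives. Plots used matplotlib 3.10.9.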

Additional observations from a re-analysis of the deposited data

How the results depend on the processing

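Under all 12 alternatives 0 collagens passed the adjusted p. Other genes did under DESeq2 (11), with no count filter (8), without vector replicate 1 (2) and without LINC00894 replicate 3 (9). The number at an unadjusted p under 0.05, 0 as reported, was 1 by DESeq2 (Col16a1), 2 without a filter and 2 by limma on log2 FPKM (Col16a1 and Col23a1 in both), 2 with the Y-linked covariate (Col19a1 and Col4a6) and 0 to 4 when 1 library was left out. Of all genes, 655 of 15121 were under it by DESeq2, 975 of 22810 without a filter, 714 of 15892 by limma, 1368 of 15121 with the Y-linked covariate, 591 of 15344 without LINC00894 replicate 1 (where the collagens numbered 4 of 37) and 394 to 1104 over the left-out libraries. The fibrillar median ran from -0.31 to 0.18 and the type IV median from 0.05 to 0.32 when 1 library was left out, and the latter was -0.15 with the Y-linked covariate. The difference in the log2 ratio of fibrillar to type IV ran from -0.72 to -0.08 when 1 library was left out. It ran from -0.32 to -0.15 under the planned other ways of summing. For Col1a1 and Col3a1 alone against type IV, a definition chosen after seeing the data, it was -0.60. Among the 13 genes given in full, signs turned for Col4a3 (-0.39) and Col8a1 (-0.41) with the Y-linked covariate. With 1 library left out they turned for Col1a1 (-0.60 to 0.24), Col3a1 (-1.64 to 0.64) and Col8a1 (-0.17 to 1.23). The cause was not tested. No paired analysis was possible because the labels give the groups no shared replicate numbers. Genes with few counts, such as Col17a1 and Col4a6, are limited by depth.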

Other observations

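Of the 8 rows that the table describes as collagen chains under other symbols, the α3 chain of type VI had 103, 347 and 132 counts in vector and 236, 88 and 86 in LINC00894, with vector replicate 2 and LINC00894 replicate 1 highest, as for Col3a1. A row described as similar to the α1(XXV) chain, LOC102553088, had 57, 47 and 118 counts in vector and 43, 70 and 39 in LINC00894. Col25a1 had 127, 170 and 364 and then 151, 202 and 96 counts, so both rows were highest in vector replicate 3. A row described as similar to the α2(XI) chain, LOC100911886, had 3, 1 and 18 and then 6, 8 and 2 counts, also with the highest value in vector replicate 3, as for Col11a2. Whether these rows share reads was not tested.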
